A study of Mus musculus with 2 samples.

Results

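Type I interferons are cytokines that induce an antiviral state, and the genes they switch on are called interferon-stimulated genes. Described here are 9 such genes, Isg15, Mx1, Stat2, Rsad2, Ifit1, Ifit3, Oasl2, Ifi27l2a and Gbp2, in dendritic cells of the resting lung. They were chosen by name, were each found once by symbol among the 31053 features of both matrices, and all 9 had UMIs in both libraries. The libraries came from lungs of C57BL/6 mice aged 8 to 10 weeks, digested with dispase before the cells were sorted on a flow cytometer. The cDC1 sort took cells with the chemokine receptor XCR1, and the cDC2 sort took cells with CD172a, the protein that Sirpa encodes. No treatment, infection or gene deletion is given for either group, neither the number of mice nor any pooling is stated, and each sort is 1 library.

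Conventional dendritic cells (cDCs) take up antigen in tissues and present it to T cells, the cDC1 kind mainly to CD8 T cells and the cDC2 kind mainly to CD4 T cells. Type I interferon binds the receptor pair IFNAR1 and IFNAR2, the kinases JAK1 and TYK2 then phosphorylate STAT2, which joins IRF9 in a complex called ISGF3 that binds the interferon-stimulated response element (ISRE) in promoters. Interferon-gamma acts through IFNGR1, IFNGR2, JAK1 and JAK2, and leads to binding at a different element, the gamma-activated site (GAS). Uninfected tissue is known to keep a low, tonic level of interferon signalling, and dendritic cells are also known to switch on some interferon-stimulated genes when they mature.

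Promoters were read from RefSeq tables on build GRCm38.p6, which hold 7 of the 9 members, without Mx1 and Ifi27l2a. The 250 bases before the start of each gene were searched on both strands for the core letters of the ISRE, which are GAAA, any 2 bases and GAAA again. Of the 7 promoters, 6 hold a match (Isg15, Stat2, Rsad2, Ifit1, Ifit3 and Gbp2) and Oasl2 does not, against 2.98% of 32851 promoters of the same length. The letters TTCNNNGAA, the core of the GAS, where N is any base and both strands read alike, were found in 0 of the 7 and in 7.02% of all promoters. A match is a description of letters and not a binding site that was measured. The stretches below are those of the 6 members with a match, since ISGF3 is known to bind the element these letters come from. Isg15, Rsad2, Ifit1 and Ifit3 are also the genes used further on to pick cells. Capitals mark the ISRE matches, and all are written 5′ to 3′ on the gene's own strand.
Isg15: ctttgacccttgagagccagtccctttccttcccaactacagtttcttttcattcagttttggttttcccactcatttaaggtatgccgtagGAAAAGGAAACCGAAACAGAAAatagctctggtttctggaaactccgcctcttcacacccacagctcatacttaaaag
Rsad2: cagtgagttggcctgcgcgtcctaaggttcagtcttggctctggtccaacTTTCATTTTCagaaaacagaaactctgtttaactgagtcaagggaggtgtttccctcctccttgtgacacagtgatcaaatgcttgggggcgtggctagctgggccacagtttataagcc
Ifit1: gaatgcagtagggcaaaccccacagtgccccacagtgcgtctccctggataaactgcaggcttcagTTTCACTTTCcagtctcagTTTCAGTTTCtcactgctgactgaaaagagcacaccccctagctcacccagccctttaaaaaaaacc
Ifit3: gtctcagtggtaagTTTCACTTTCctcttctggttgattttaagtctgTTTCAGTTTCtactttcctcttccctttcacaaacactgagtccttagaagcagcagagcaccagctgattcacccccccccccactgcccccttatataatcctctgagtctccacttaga
Gbp2: tcttttagTTTCACTTTCactgtctt
Stat2: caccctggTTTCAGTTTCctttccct
They lie at chr4:156200819-156200988, minus strand (Isg15), chr12:26456453-26456622, minus strand (Rsad2), chr19:34640719-34640870, plus strand (Ifit1), chr19:34583359-34583528, plus strand (Ifit3), chr3:142620596-142620621, plus strand (Gbp2) and chr10:128270268-128270293, plus strand (Stat2). The first base of the nearest match stands 66 bases before the RefSeq start in Isg15, 85 in Ifit1, 122 in Ifit3, 120 in Rsad2, 59 in Gbp2 and 222 in Stat2. Isg15 has 3 matches that overlap in 1 run, Ifit1 and Ifit3 have 2 separate ones each, and Rsad2, Gbp2 and Stat2 have 1. The gene bodies on the same build, in GENCODE vM21, are chr4:156199424-156200818 (Isg15), chr16:97447035-97462907 (Mx1), chr10:128270559-128292849 (Stat2), chr12:26442746-26456452 (Rsad2), chr19:34640871-34650009 (Ifit1), chr19:34583531-34588731 (Ifit3), chr5:114896936-114912234 (Oasl2), chr12:103442167-103443680 (Ifi27l2a) and chr3:142620602-142638008 (Gbp2). Isg15, Mx1, Rsad2 and Ifi27l2a lie on the minus strand. The GENCODE start lies 61 bases before the RefSeq start in Gbp2, so that the Gbp2 match falls inside the GENCODE gene body, 18 bases before it in Ifit1, 2 bases after it in Ifit3 and 61 bases after it in Stat2.

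After filters on genes, UMIs and mitochondrial share, 2574 of 2939 barcodes (cDC1 sort) and 2835 of 3045 barcodes (cDC2 sort) were kept, with medians of 12866 and 12655 UMIs per cell. The 2 libraries shared 6 barcodes, of which 5 and 6 passed the filters. Xcr1 gave UMIs in 85.0% of cells of the cDC1 sort and 4.69% of cells of the cDC2 sort, Sirpa in 3.42% and 70.9%, and Cd209a, a lectin gene of cDC2, in 11.1% and 84.6%. All 8 cDC1 markers reached 10 CPM (UMIs per 1000000 UMIs of the library) in the cDC1 sort and cells had a median of 6 of them, while cells of the cDC2 sort had a median of 5 of 8 cDC2 markers. Other cells were present at low shares, and 57 cells of the cDC1 sort and 55 of the cDC2 sort held more markers of the other sort than of their own. With 1 library per sort no p-value can be had, so values carry 95% intervals that cover counting error only, and a 2-fold rule of size stands in for a test.

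Between the libraries the members split. Isg15 and Ifi27l2a were lower in the cDC1 sort, Mx1 and Stat2 were higher in it, and the others stayed below 10 CPM in both, the level required for a call. Of the 4 members at 10 CPM or more in either library, 2 were at least 2-fold higher in cDC1, where 5.51% of all 6610 measured genes were, and 2 were at least 2-fold higher in cDC2, where 7.79% of all measured genes were. The median log2 ratio (cDC1 over cDC2) was 0.01 over these 4 members and -0.05 over all measured genes.

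Stat2, the signalling factor that is specific to the type I and type III interferon receptors and is itself induced by interferon, had 72.1 CPM in the cDC1 sort (69.3 to 74.9) and 31.3 CPM in the cDC2 sort (29.6 to 33.1). The ratio was 2.30 (2.15 to 2.47). At least 1 UMI of Stat2 was found in 53.5% of cDC1-sort cells and 28.3% of cDC2-sort cells. Mx1, a dynamin-like GTPase that blocks influenza viruses and that is defective as a protein in C57BL/6 mice, which carry a deletion in the gene, had 13.8 CPM in the cDC1 sort (12.6 to 15.1) and 5.98 CPM in the cDC2 sort (5.24 to 6.81). The ratio was 2.31 (1.97 to 2.71), and UMIs were found in 12.6% of cDC1-sort cells and 5.33% of cDC2-sort cells. Neither interval held 1. When each cell weighed the same, the Mx1 ratio was 1.95, under the 2-fold rule, and without the 1% of cells with most Mx1 UMIs in each library it was 3.01. That 1% was 26 of the 324 cells with Mx1 in the cDC1 sort and 28 of the 151 in the cDC2 sort.

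Isg15, a ubiquitin-like protein that is attached to other proteins or released, had 6.50 CPM in the cDC1 sort (5.68 to 7.40) and 26.8 CPM in the cDC2 sort (25.2 to 28.5), a ratio of 0.243 (0.209 to 0.28), or 4.12-fold higher in the cDC2 sort. UMIs of Isg15 were found in 4.62% of cDC1-sort cells and 18.2% of cDC2-sort cells. When the 1% of cells with most Isg15 UMIs in each library were left out the ratio was 0.141. This took 26 of the 119 cells with Isg15 in the cDC1 sort and 28 of the 517 in the cDC2 sort. Ifi27l2a, a small mitochondrial or membrane protein of the ISG12 family, had 131 CPM in the cDC1 sort (127 to 135) and 298 CPM in the cDC2 sort (293 to 304), a ratio of 0.440 (0.425 to 0.455). It was found in 48.0% of cDC1-sort cells and 75.1% of cDC2-sort cells. After thinning each cell to 2000 UMIs, the shares were 17.7% in the cDC1 sort and 35.1% in the cDC2 sort.

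The other 5 members were too low for a call. Rsad2, the antiviral enzyme viperin, had 3.16 CPM in the cDC1 sort and 2.77 CPM in the cDC2 sort, with a ratio of 1.14 whose interval (0.868 to 1.5) held 1. The ratio was 0.0849 without the 1% of cells with most Rsad2 UMIs in each library, 1.73 without cells gated as other than conventional dendritic cells, and 0.674 when each cell weighed the same. That 1% took 26 of the 28 cells with Rsad2 in the cDC1 sort but 28 of the 54 in the cDC2 sort, so the 0.0849 follows largely from the rule. Ifit1, which binds viral RNA that lacks a host-type cap, had 0.770 CPM in the cDC1 sort and 2.87 CPM in the cDC2 sort (ratio 0.268, 0.169 to 0.411). Of the cDC1 sort's 27 Ifit1 UMIs, 17 lay in 3 cells with more cDC2 than cDC1 markers, and without cells of the other sort's markers the ratio was 0.101. Only 7 cells of the cDC1 sort had an Ifit1 UMI, so leaving out the 26 cells with most of them had to leave 0.

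Ifit3, of the same gene family as Ifit1, had 0.798 CPM in the cDC1 sort and 0.647 CPM in the cDC2 sort (ratio 1.23, 0.693 to 2.21). Its near-identical neighbour Ifit3b had 5 UMIs in the cDC1 sort and 10 in the cDC2 sort, and reads of the pair may have been split or lost in counting. Oasl2, a protein related to the oligoadenylate synthetases, had 2.11 CPM in the cDC1 sort and 4.01 CPM in the cDC2 sort (ratio 0.526, 0.393 to 0.698), and the ratio was 0.288 without the 1% of cells with most of it. Gbp2, a guanylate-binding protein that is strongly induced by interferon-gamma and also by type I interferon, had 2.42 CPM in the cDC1 sort and 7.28 CPM in the cDC2 sort (ratio 0.333, 0.258 to 0.426). The Gbp2 ratio was 0.126 without the 1% of cells with most of it and 0.170 without mature, cycling and non-dendritic cells. Oasl2 was found in 48 cells of the cDC1 sort and 110 of the cDC2 sort, and Gbp2 in 43 and 150. The 1%, which was 26 and 28 cells, thus took a larger part of them in the cDC1 sort. The low members were found in few cells, from 0.272% (Ifit1) to 1.86% (Oasl2) of the cDC1 sort and from 0.564% (Ifit3) to 5.29% (Gbp2) of the cDC2 sort. RNA freed from other lung cells can also give such shares, and the free RNA of each member was not measured. The airway gene Scgb1a1 gave a UMI in 36.2% of cDC1-sort cells and 26.6% of cDC2-sort cells. Sftpc of alveolar type II cells did so in 10.3% and 9.03%, and Cd79a of B cells in 0.660% and 2.08%, in the same order. The shares of Rsad2, Ifit1, Ifit3, Oasl2 and Gbp2 lay below that of Sftpc in both libraries, as did those of Isg15 in the cDC1 sort and Mx1 in the cDC2 sort. The shares of Mx1 in the cDC1 sort and Isg15 in the cDC2 sort lay between those of Sftpc and Scgb1a1. Such a share counts cells with a UMI and not cells that express the gene.

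**Figure D1:**
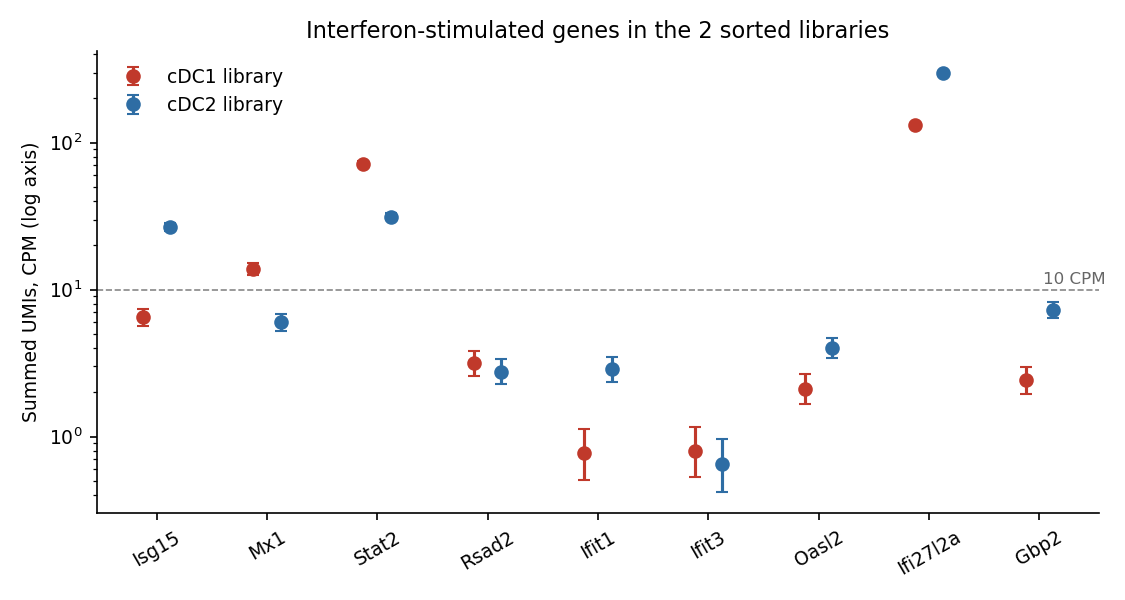
Summed UMIs (CPM, log axis) of each member in the cDC1 sort (red, left) and the cDC2 sort (blue, right), with 95% Poisson intervals for counting error and the 10 CPM limit dashed. Mx1 and Stat2 stand higher in the cDC1 sort and Isg15 and Ifi27l2a in the cDC2 sort, while Rsad2, Ifit1, Ifit3, Oasl2 and Gbp2 lie under the limit in both.

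Interferon genes were barely detected, and no measured gene in the list of receptors, kinases and factors was 2-fold apart. Stat2, which also carries the signal and had a ratio of 2.30, is a member and is not in that list. Of 12 type I and III interferon genes, 10 had 0 UMIs in both libraries. Ifnb1, the interferon-beta gene, had 3 UMIs in 1 cell of the cDC1 sort and 14 UMIs in 9 cells of the cDC2 sort (ratio 0.236, 0.0435 to 0.845), far under the level required for a call. Of the 12 receptors, kinases and transcription factors 10 were measured and 0 were 2-fold apart, with a median log2 ratio of -0.10. Ifngr1 had 235 CPM in the cDC1 sort and 265 CPM in the cDC2 sort, and Jak2 had 256 CPM and 281 CPM in the same order. Ifnar1, chosen after its values were seen, had 93.6 CPM in the cDC1 sort and 86.4 CPM in the cDC2 sort. Irf9, which binds DNA within ISGF3 and was likewise chosen after its values were seen, had a ratio of 1.65 (1.49 to 1.84), under the 2-fold rule. Ifnlr1, the type III interferon receptor, was too low for a call, with 3.28 CPM in the cDC1 sort and 1.19 CPM in the cDC2 sort (ratio 2.75, 1.94 to 3.96), and was chosen in the same way.

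Other interferon targets went both ways. Of 38 further type I interferon-stimulated genes, 16 were measured, 2 were at least 2-fold higher in cDC1 and 3 in cDC2. Of all measured genes 5.51% were higher in cDC1 and 7.79% in cDC2, which stand beside the counts of the other lists as well. Ly6e, a membrane protein of the LY6 family, had 681 CPM in the cDC1 sort and 335 CPM in the cDC2 sort, and Tor3a had a ratio of 2.07. Bst2 (tetherin, which holds budding virus on the cell) had 74.0 CPM in the cDC1 sort and 77.5 CPM in the cDC2 sort. The chemokine gene Cxcl10 had 7.33 CPM in the cDC1 sort and 24.1 CPM in the cDC2 sort, Ifi27 had 11.2 CPM and 35.9 CPM in the same order, and Parp14 had a ratio of 0.438. Of 6 measured interferon-gamma-responsive genes, 4 were higher in cDC1 and 0 in cDC2: the proteasome subunit Psmb9 (ratio 3.29), the chemokine Cxcl9 (2.31), the MHC class I regulator Nlrc5 (2.19) and the peptide transporter Tap1 (2.08). Of the 435 Cxcl9 UMIs of the cDC1 sort 89 lay in 1 cell and 56 in another, and whether Cxcl9 passes the rule without them was not tested. Psmb8, another proteasome subunit, had a ratio of 1.79 and Ciita, the MHC class II regulator, 0.840. None of 14 guanylate-binding and immunity-related GTPases reached 10 CPM. Among 5 measured brakes on the pathway Socs3, a suppressor of cytokine signalling, was lower in cDC1 (ratio 0.463), and the phosphatase Ptpn6 had a ratio of 0.542. Of the 4 enzymes that attach or remove ISG15, Ube2l6 was measured and had a ratio of 1.16.

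Cells were then gated into states by markers that include no member. Within each library, states were set beside the resting cells, those that passed no gate, which were 1938 cells in the cDC1 sort and 924 in the cDC2 sort. Mature cells held 3 or more of Fscn1, Cacnb3, Apol7c, Nudt17 and H2-M2 and numbered 78 in the cDC1 sort and 51 in the cDC2 sort. Gbp2, Mx1 and Isg15 were all at least 2-fold higher in mature than in resting cells of both libraries, Stat2 and Ifi27l2a were not 2-fold apart, and none was 2-fold lower. In the cDC1 sort 3 of 5 measured members were higher in mature cells, where 14.7% of all 6570 measured genes were, and 0 were lower, where 13.2% were. In the cDC2 sort 4 of 6 were higher, where 14.6% of 6857 genes were, and 0 were lower, where 11.3% were. These counts hold members that reached 10 CPM in mature and not in resting cells and so had to be higher in mature cells. Such members were Gbp2 and Isg15 in the cDC1 sort and Gbp2, Mx1 and Ifit1 in the cDC2 sort. Of the 3 members at 10 CPM in the whole library, 1 was higher in each sort (Mx1 in the cDC1 sort and Isg15 in the cDC2 sort), where 10.0% of 6128 genes were in the cDC1 sort and 8.95% of 6193 in the cDC2 sort, and 0 were lower, where 14.4% and 12.5% were.

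Gbp2 in the cDC1 sort had 52.6 CPM in mature cells (40.0 to 67.8) and 0.408 CPM in resting cells (0.196 to 0.751), a ratio of 129 (65.3 to 282), and the 78 mature cells held 69.4% of that library's Gbp2 UMIs. The ratio was 351 when every gate asked for 1 marker fewer and 47.6 without the 1% of cells with most Gbp2 UMIs. It had 96.9 CPM in mature cells of the cDC2 sort (74.5 to 124) and 4.45 CPM in its resting cells (3.31 to 5.85), a ratio of 21.8 (14.8 to 32.2), and mature cells held 22.4% of its UMIs. That ratio was 11.1 with 1 marker fewer and 7.97 without the 1% of cells with most Gbp2 UMIs. Gbp2 was spread over the mature cells, with UMIs in 24 of 78 in the cDC1 sort and 21 of 51 in the cDC2 sort and at most 12 UMIs in a cell.

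Mx1 in the cDC1 sort had 38.3 CPM in mature cells and 13.1 CPM in resting cells, a ratio of 2.91 (2.07 to 4.01). It had 80.0 CPM in mature cells and 4.27 CPM in resting cells of the cDC2 sort, a ratio of 18.7 (12.4 to 28.2), which was 34.4 when each cell weighed the same and 9.16 without the 1% of cells with most Mx1 UMIs. The order of the libraries was not the same in these states. Mx1 was lower in cDC1 among mature cells (ratio 0.479, 0.312 to 0.731) and higher in it among resting cells (3.08, 2.27 to 4.24). Isg15 had 25.8 CPM in mature cells and 3.18 CPM in resting cells of the cDC1 sort, a ratio of 8.11 (5.11 to 12.6). It had 76.9 CPM in mature cells and 21.4 CPM in resting cells of the cDC2 sort, a ratio of 3.60 (2.60 to 4.90).

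Stat2 had a mature over resting ratio of 0.720 (0.549 to 0.927) in the cDC1 sort and 1.11 (0.678 to 1.72) in the cDC2 sort. Ifi27l2a had 0.651 (0.522 to 0.803) in the cDC1 sort and 0.624 (0.513 to 0.751) in the cDC2 sort. Ifit1 passed the fold in mature cells of the cDC2 sort (12.3 CPM, against 2.35 CPM in resting cells), but all 8 of its UMIs lay in 1 cell, and without the 1% of cells with most Ifit1 UMIs mature cells had 0. Mature cells had 0 UMIs of Ifit3 in both libraries, of Ifit1 in the cDC1 sort and of Oasl2 in the cDC2 sort. Rsad2 had 4 UMIs in mature cells of the cDC1 sort and 2 in those of the cDC2 sort.

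**Figure D2:**
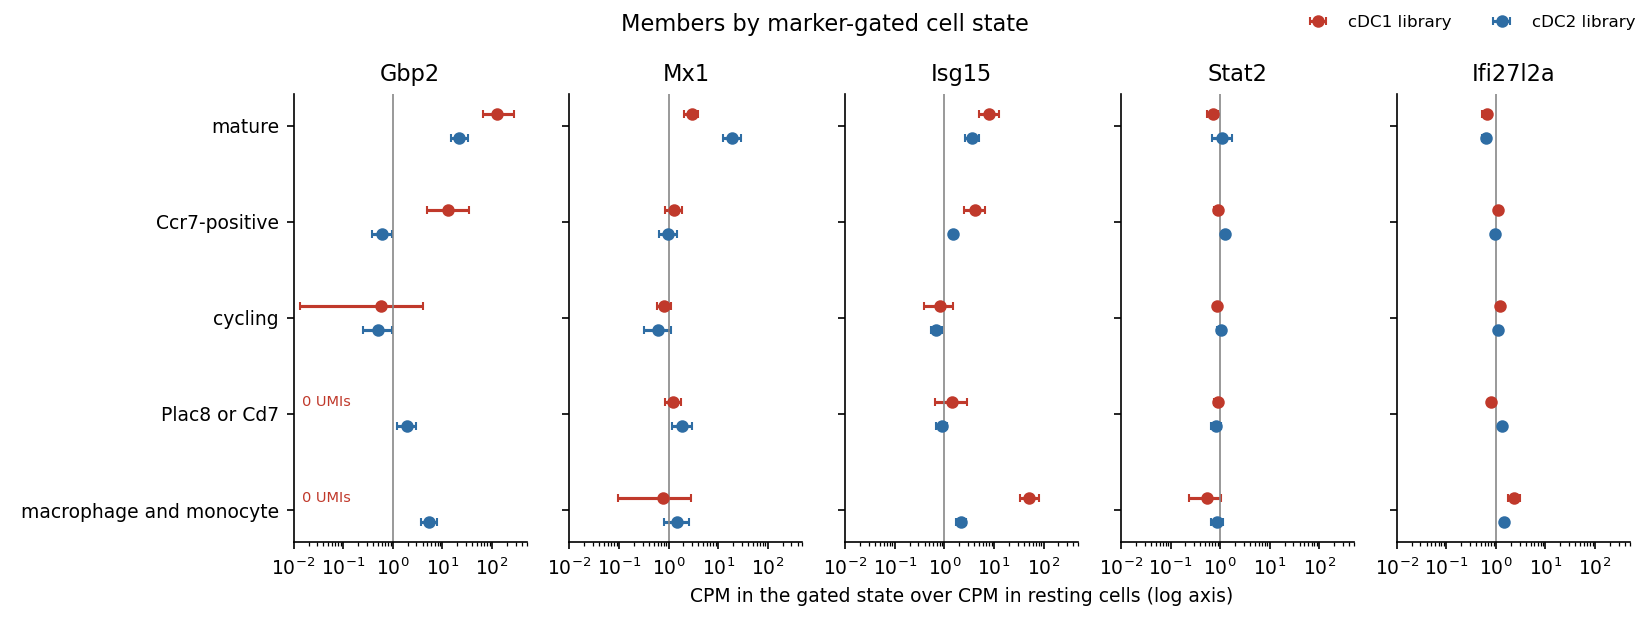
CPM of Gbp2, Mx1, Isg15, Stat2 and Ifi27l2a in each marker-gated state over CPM in resting cells (log axis), in the cDC1 sort (red, upper point) and the cDC2 sort (blue, lower point), with 95% counting intervals. In mature cells Gbp2, Mx1 and Isg15 lie right of 1 in both libraries, with ratios of 129, 2.91 and 8.11 in the cDC1 sort, while Stat2 and Ifi27l2a stay under a 2-fold difference in mature, Ccr7-positive, cycling and Plac8 or Cd7 cells.

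Other pathway genes in mature cells were set beside the members, and are counted when at 10 CPM in the whole library. Genes that reach it in mature and not in resting cells had to be higher in mature cells. In each library, of 10 measured receptors, kinases and factors, Irf1 was at least 2-fold higher and Ifngr1 was at least 2-fold lower in mature than in resting cells. Of all genes at that level 10.0% were higher and 14.4% lower in the cDC1 sort, and 8.95% and 12.5% in the cDC2 sort. Irf1, a transcription factor that interferon-gamma induces, had ratios of 12.6 in the cDC1 sort and 6.02 in the cDC2 sort, and Ifngr1 had 0.172 and 0.354 in the same order. Irf9 had ratios of 0.835 (0.531 to 1.25) and 1.47 (0.806 to 2.49). Of the 4 enzymes of ISG15 attachment and removal Ube2l6 was measured in this way and passed the fold in both libraries. The other enzymes reached 10 CPM in mature and not in resting cells. Ube2l6, the conjugating enzyme, had ratios of 5.0 in the cDC1 sort and 2.28 in the cDC2 sort. In the same order the activating enzyme Uba7 had 5.23 and 4.19 and the ligase Herc6 3.97 and 4.58. The protease Usp18, which also restrains IFNAR2, had 5.39 and 8.33. Irf1, Irf9, Uba7, Herc6 and Usp18 were chosen after their values were seen, as were Socs1, Gbp5 and Gbp8 below.

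Among 5 measured brakes 0 were higher and Socs3 was lower (ratio 0.221 in the cDC1 sort and 0.393 in the cDC2 sort). Socs1, at 10 CPM in mature and not in resting cells, had ratios of 5.18 in the cDC1 sort and 2.43 in the cDC2 sort. None of 14 guanylate-binding and immunity-related GTPases was at 10 CPM in either library, and Gbp5 and Gbp8 reached it in mature cells of both. Other type I interferon-stimulated genes went both ways, with 3 higher and 2 lower of 13 in the cDC1 sort and 3 higher and 5 lower of 14 in the cDC2 sort. Of all genes at 10 CPM in the whole library 10.0% were higher and 14.4% lower in the cDC1 sort, so 2 lower of 13 was near the general share. In the cDC2 sort 8.95% were higher and 12.5% lower. The same shares stand beside the other counts here. Parp14 was higher in both, while Ly6e and Tor3a were lower in both (Ly6e ratios 0.231 in the cDC1 sort and 0.211 in the cDC2 sort). Of the interferon-gamma-responsive genes, 1 of 6 (Nlrc5) was higher and 1 (Cxcl9) lower in the cDC1 sort, and 3 of 4 (Psmb8, Psmb9 and Tap1) were higher and 0 lower in the cDC2 sort. Cxcl9 differed in direction, with 2.67 CPM in mature cells and 15.8 CPM in resting cells of the cDC1 sort (ratio 0.170, 0.0348 to 0.499) and 13.8 CPM in mature cells and 4.27 CPM in resting cells of the cDC2 sort (ratio 3.24, 1.40 to 6.67). That difference was not tested and rests on 3 mature-cell UMIs in the cDC1 sort and 9 in the cDC2 sort. The resting cells of the cDC1 sort also include a cell with 89 Cxcl9 UMIs and another with 56.

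**Figure D3:**
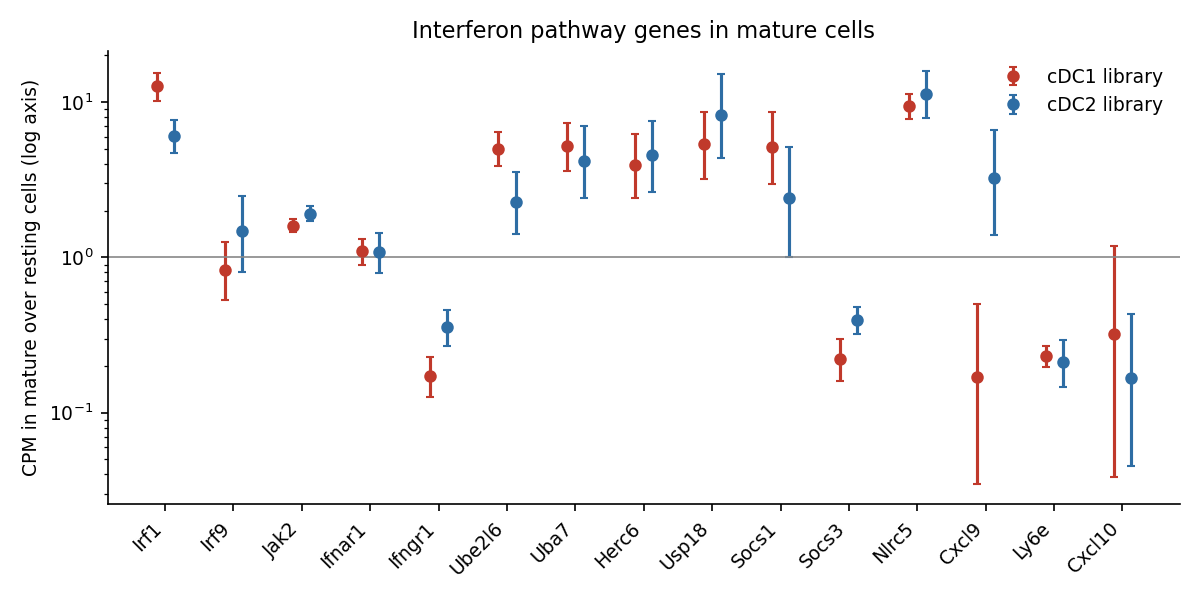
CPM of 15 interferon pathway genes in mature cells over CPM in resting cells (log axis), in the cDC1 sort (red, left) and the cDC2 sort (blue, right), with 95% counting intervals. Irf1, Nlrc5 and the 4 ISG15 enzymes lie above 1 in both libraries, Ifngr1, Socs3 and Ly6e lie below 1 in both, and Cxcl9 lies on opposite sides.

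Fewer members passed the fold in the other dendritic states. Ccr7-positive cells had 3 or more UMIs of Ccr7, the receptor for migration to lymph nodes, and fewer than 3 of the mature markers. They numbered 137 in the cDC1 sort and 934 in the cDC2 sort. In the cDC1 sort Isg15 was higher there than in resting cells (13.1 CPM, against 3.18 CPM, ratio 4.12, 2.51 to 6.53), 1 of 4 measured members, where 5.04% of all genes were, and none of the 4 was lower, where 5.36% were. Isg15 reached 10 CPM in the Ccr7-positive cells and not in resting cells. Of the 3 members at 10 CPM in the whole library 0 were higher, where 3.62% of all genes were, and 0 lower, where 5.74% were. Without the 1% of cells with most Isg15 UMIs its ratio was 2.17 and no member was called. With 1 marker or UMI more in every gate Gbp2 was called as well. That also narrowed the mature gate, from 78 to 48 cells. Former mature cells could thus be among the 149 cells then gated as Ccr7-positive. In the cDC2 sort 0 of 3 were, where 0.873% of all genes were, and Isg15 had 32.4 CPM in Ccr7-positive cells and 21.4 CPM in resting cells (ratio 1.51, 1.29 to 1.78). Gbp2, under 10 CPM in both, had a ratio of 12.8 (4.80 to 34.4) in the cDC1 sort, on 10 UMIs in Ccr7-positive cells, and 0.60 (0.377 to 0.945) in the cDC2 sort.

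Cycling cells (201 in the cDC1 sort and 255 in the cDC2 sort) had 0 of 3 measured members 2-fold higher in either library, where 10.4% of all genes were in the cDC1 sort and 7.64% in the cDC2 sort, and 0 of 3 lower, where 0.293% and 1.19% were. Their Stat2 ratios were 0.849 (0.746 to 0.964) in the cDC1 sort and 1.03 (0.848 to 1.25) in the cDC2 sort. Cells with a UMI of Plac8 or Cd7 (128 in the cDC1 sort and 363 in the cDC2 sort) also had 0 of 3 measured members 2-fold higher, where 2.04% of all genes were in the cDC1 sort and 1.85% in the cDC2 sort, and 0 of 3 lower, where 2.59% and 1.88% were. Ifit1 and Oasl2 of the cDC2 sort were called higher when every gate asked for 1 marker more, which left 134 cells with both Plac8 and Cd7. Among members too low for a call, Oasl2 in these cells had 5.14 CPM, against 1.63 CPM in resting cells of the cDC1 sort (ratio 3.14, 1.40 to 6.40), where 8 of its 10 UMIs lay in 1 cell. Oasl2 of the cDC2 sort had 8.07 CPM in them, against 3.05 CPM in resting cells (ratio 2.64, 1.61 to 4.35), with UMIs in 26 of the 363 cells. Ifit3 had 14 of the cDC2 sort's 25 UMIs in these cells, 7 of them in 1 cell.

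Irf7, the factor that amplifies type I interferon production, was higher in Plac8 or Cd7 cells of both libraries, with 21.6 CPM against 6.29 CPM in resting cells of the cDC1 sort and 18.5 CPM against 2.53 CPM in resting cells of the cDC2 sort. Zbp1, a sensor of Z-form nucleic acid, was higher in them too (ratios 2.93 in the cDC1 sort and 2.08 in the cDC2 sort), and Bst2 had 1.44 and 2.27 in the same order. Irf7, Zbp1 and Bst2 in this state were chosen after their values were seen. They were not particular to it. Irf7 and Zbp1 also passed the fold in cDC2-sort cells with more cDC1 markers, macrophage and monocyte cells and neutrophil-marker cells. Bst2 did so in those with more cDC1 markers. Irf7 passed it as well in the B, NK, T, stromal, epithelial and plasmacytoid cells of that sort and in neutrophil-marker cells of the cDC1 sort. Irf7 and Zbp1 were under 10 CPM in both whole libraries. Irf7 reached that level in Plac8 or Cd7 cells and not in resting cells, so as a measured gene it had to be higher in the former. Ifi27l2a had ratios of 0.813 (0.700 to 0.940) in the cDC1 sort and 1.34 (1.27 to 1.43) in the cDC2 sort.

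Cells that were not cDCs of the named sort held part of the signal. In the cDC1 sort the 57 cells with more cDC2 than cDC1 markers had 46.9 CPM of Isg15, against 3.18 CPM in resting cells (ratio 14.7, 9.93 to 21.6), and 19.3% of the library's Isg15 UMIs. Their Stat2 was lower (25.6 CPM, ratio 0.333) and their Ifi27l2a higher (273 CPM, ratio 2.21). Isg15 and Ifit1 reached 10 CPM in these cells and not in resting cells. Of the 3 members at 10 CPM in the whole library 1 was higher in them and 1 lower, where 8.47% and 11.8% of all genes were. The 55 cells of the cDC2 sort with more cDC1 than cDC2 markers had 57.4 CPM of Stat2, against 29.1 CPM in resting cells (ratio 1.97, 1.37 to 2.76). Mx1 was higher in them (15.1 CPM, against 4.27 CPM, ratio 3.53, 1.60 to 7.06). Gbp2 was also higher in them (19.6 CPM, against 4.45 CPM, ratio 4.41, 2.20 to 8.23). Mx1 and Gbp2 reached 10 CPM in these cells and not in resting cells. Of the 3 members at 10 CPM in the whole library 0 were higher, where 7.69% of all genes were, and 0 lower, where 10.7% were. Without the cells of the other sort's markers the Isg15 ratio between the libraries was 0.200.

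Macrophage and monocyte cells (169 in the cDC2 sort) had 23.9 CPM of Gbp2, against 4.45 CPM in resting cells (ratio 5.37, 3.66 to 7.92), and 46.3 CPM of Isg15, against 21.4 CPM (ratio 2.17, 1.73 to 2.70). Gbp2 reached 10 CPM in these cells and not in resting cells. Of the 3 members at 10 CPM in the whole library Isg15 was higher, where 5.65% of all genes were, and 0 were lower, where 2.15% were. The cDC1 sort had 10 such cells, with 32 Isg15 UMIs, 23 of them in 1 cell. The 34 cells of the cDC2 sort with 3 or more neutrophil markers had a median of 3076.5 UMIs. They had 105 CPM of Rsad2 (70.5 to 151), against 2.27 CPM in resting cells (ratio 46.4, 26.4 to 82.1), in 10 of the 34 cells, and so 27.1% of the library's Rsad2 UMIs. Oasl2 had 58.1 CPM in them, against 3.05 CPM (ratio 19.0, 9.84 to 35.3), and Isg15 90.8 CPM, against 21.4 CPM (ratio 4.25, 2.70 to 6.42). Rsad2 and Oasl2 reached 10 CPM in these cells and not in resting cells. Of the 3 members at 10 CPM in the whole library Isg15 was higher, where 13.4% of all genes were. Stat2 was lower, on 4 UMIs (14.5 CPM, ratio 0.499, 0.135 to 1.29), where 14.2% were lower. These cells were 1.20% of the library, and the neutrophil markers summed to 47.4 CPM in the cDC1 sort and 416 CPM in the cDC2 sort, with none of the 5 at 0.

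Heat-shock genes, which respond to handling of tissue, moved with Mx1 in both libraries, past the 2-fold rule in the cDC2 sort alone. The other members were too low for a call or under the 2-fold rule, and the share of all genes past it was not computed. Cells with 4 or more of 5 heat-shock markers numbered 589 in the cDC1 sort and 229 in the cDC2 sort. Mx1 had 21.0 CPM in them and 11.4 CPM in the other cells of the cDC1 sort (ratio 1.84, 1.52 to 2.22), and 14.4 CPM in them and 5.06 CPM in the other cells of the cDC2 sort (ratio 2.84, 2.06 to 3.87). Among cells with fewer heat-shock markers Mx1 was 11.4 CPM in the cDC1 sort and 5.06 CPM in the cDC2 sort. Summed over the 5 markers, the level was 1406 CPM in the cDC1 sort and 723 CPM in the cDC2 sort, with none of the 5 at 0. The part of heat shock in these levels was not tested otherwise. Gated states were not kept apart in this split. Mature cells held 8.88% of the Mx1 UMIs of the cDC1 sort and 22.5% of those of the cDC2 sort. Their part in the Mx1 ratios was not tested. Between heat-shock cells and the others Rsad2, too low for a call, had ratios of 2.77 (1.87 to 4.09) in the cDC1 sort and 1.37 (0.721 to 2.42) in the cDC2 sort. In the cDC2 sort Ifit3 had a ratio of 5.12 (1.99 to 12.3), Oasl2 2.09 (1.35 to 3.16), Ifit1 1.88 (1.08 to 3.10) and Gbp2 1.69 (1.20 to 2.34). Of these, Ifit3, Oasl2 and Ifit1 were too low for a call there, with 9, 29 and 19 UMIs in the heat-shock cells. In the cDC1 sort these had 0.659 (0.196 to 1.77), 0.904 (0.493 to 1.58), 0.242 (0.0278 to 0.972) and 0.814 (0.455 to 1.39) in the same order. Stat2 had ratios of 0.808 in the cDC1 sort and 1.10 in the cDC2 sort, Isg15 0.963 and 0.898, and Ifi27l2a 0.923 and 0.984.

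Few cells held most UMIs of Ifit1, Ifit3 and Rsad2. The number of cells that holds 50% of a gene's UMIs cannot exceed 50% of its UMI count, rounded up, so it is given beside that limit. For Ifit1, 1 cell of the cDC1 sort held 14 of 27 UMIs, where up to 14 cells could have been needed. For Rsad2, 2 cells of that library held more than 50% of the UMIs, with 29 and 27 of 111 (limit 56 cells), and for Ifit3, 2 cells did, the first with 13 of 28 (limit 14). In the cDC2 sort 11 cells held 50% of the Rsad2 UMIs (limit 54), 6 cells 50% of those of Ifit1 (limit 56) and 4 cells 50% of those of Ifit3 (limit 13).

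The other members had more UMIs than Ifit1, Ifit3 and Rsad2 in the cDC2 sort. Among cDC1-sort cells Gbp2 (85) and Oasl2 (74) had fewer than Rsad2 (111), and few cells held 50% of theirs as well. In the cDC1 sort the number of cells that held 50% of the UMIs was 386 for Stat2 (limit 1264), 195 for Ifi27l2a (limit 2301), 85 for Mx1 (limit 242), 19 for Isg15 (limit 114), 11 for Gbp2 (limit 43) and 12 for Oasl2 (limit 37). For the cDC2 sort it was 224 for Stat2 (limit 605), 358 for Ifi27l2a (limit 2835, all cells), 38 for Mx1 (limit 116), 102 for Isg15 (limit 518), 32 for Gbp2 (limit 141) and 33 for Oasl2 (limit 78). By the variance of UMIs per cell over the mean the order was another one, with 16.7 for Rsad2, 8.99 for Ifit1, 7.76 for Ifi27l2a and 6.71 for Ifit3 in the cDC1 sort, and 8.28 for Ifi27l2a, 7.68 for Ifit1, 3.79 for Rsad2 and 2.99 for Ifit3 in the cDC2 sort. That variance was at least 2 times the mean for 8 of 9 members in the cDC1 sort, where 12.6% of genes with 20 or more UMIs reached that, and for 7 of 9 in the cDC2 sort, where 14.6% did. Depth differs between cells and adds to this measure. After thinning to 2000 UMIs per cell, 1 of the 5 members with 20 or more UMIs left still reached it in the cDC1 sort and 2 of 7 in the cDC2 sort, against 2.02% and 2.39% of all genes. Ifi27l2a reached it in both, at 2.16 in the cDC1 sort and 2.17 in the cDC2 sort, and Rsad2 in the cDC2 sort at 2.38.

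**Figure D4:**
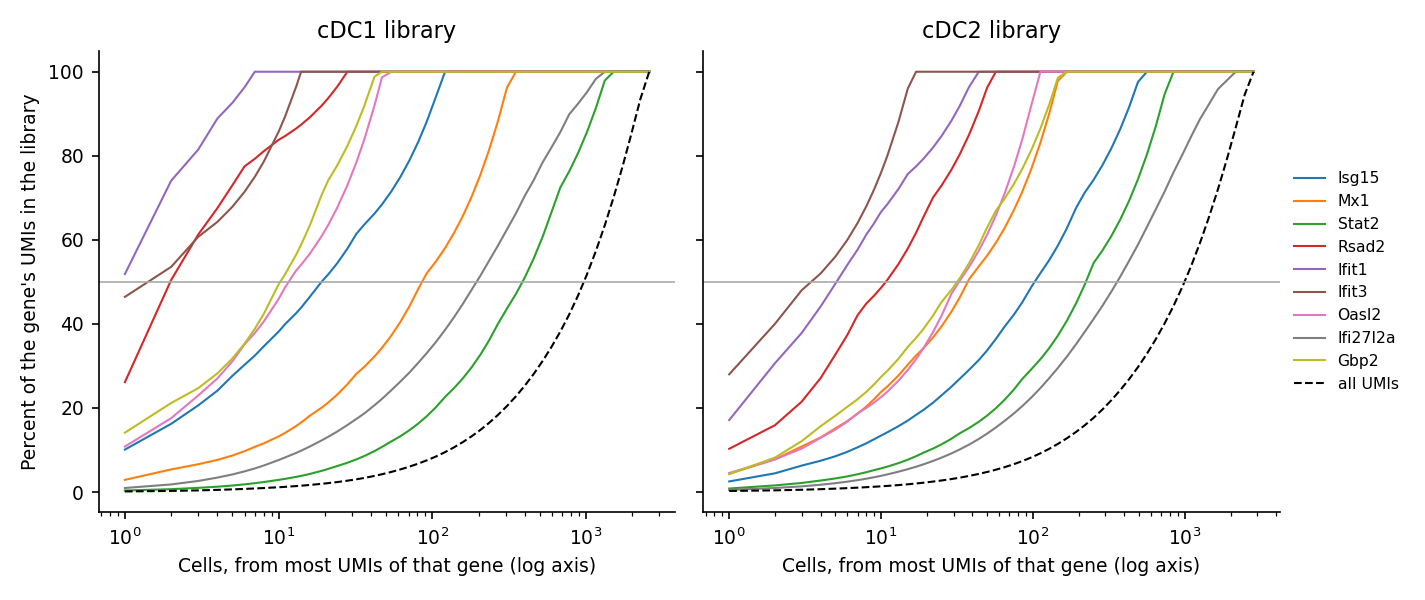
Percent of each member's UMIs held by the cells with most of them, against the number of cells (log axis), in the cDC1 sort (left) and the cDC2 sort (right), with all UMIs as the dashed line and 50% as the grey line. Ifit1, Ifit3 and Rsad2 cross 50% within 2 cells in the cDC1 sort and within 11 cells in the cDC2 sort, and Stat2 and Ifi27l2a, which have the most UMIs in both, lie nearest the dashed line.

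Some cells held several of these genes. A cell was counted when it had a UMI of at least 3 of Isg15, Rsad2, Ifit1 and Ifit3. There were 3 such cells in the cDC1 sort (0.117% of 2574, exact binomial interval 0.0240% to 0.340%) and 8 in the cDC2 sort (0.282% of 2835, 0.122% to 0.555%). When at least 2 UMIs of each gene were asked for, 2 cells were left in each library, and after thinning to 2000 UMIs per cell 2 were left in the cDC1 sort and 0 in the cDC2 sort. At least 2 of the genes were held by 14 and 46 cells, at least 1 by 150 and 574 cells, and all 4 by 1 cell in each library. The 3 cells of the cDC1 sort held 0.0827% of all UMIs but 74.1% of those of Ifit1, 14 of the 28 UMIs of Ifit3, 34.2% of Rsad2 and 11.4% of Isg15. The 8 cells of the cDC2 sort held 0.301% of all UMIs, 25.2% of those of Ifit1, 15 of the 25 UMIs of Ifit3, 19.6% of Rsad2 and 2.71% of Isg15. These genes chose the cells, so their shares are a description.

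Genes that did not choose the cells were also found in them. Irf7 had 10.5% of its UMIs in the 3 cells of the cDC1 sort and 6.73% in the 8 cells of the cDC2 sort. Mx1 had 3.31% of its UMIs in the 3 cells and 6.06% in the 8, Oasl2 10.8% and 4.52%, and Gbp2 0% and 4.63%. Stat2 had 0.237% and 1.90%, and Ifi27l2a 0.174% and 0.729%. Cxcl10 had 22.2% and 2.58%, and Cxcl9 12.9% and 1.93%. These counts are small, and Irf7 and the chemokine genes were chosen after their values were seen.

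The cells were not alike. In the first cell of the cDC1 sort, a resting cell with 12459 UMIs and 7 of Xcr1, there were 27 UMIs of Rsad2, 14 of Isg15, 14 of Mx1, 13 of Ifit3, 6 of Ifit1, 16 of Irf7, 56 of Cxcl9 and 53 of Cxcl10. The second, with cDC2 markers and 7508 UMIs, had 14 of Ifit1, 8 of Isg15, 5 of Rsad2, none of Mx1 or Irf7, 3 of Ifnb1, 139 of the chemokine gene Ccl4 and 37 of Ccl3. It was the only Ifnb1-positive cell of that library. The third, a Plac8 or Cd7 cell, had 8 of Oasl2, 6 of Rsad2, 9 of Irf7 and 25 of Ly6e. In the cDC2 sort 4 of the 8 cells were Plac8 or Cd7 cells, and the cell with most had 15 of Ifit1, 7 of Ifit3, 8 of Mx1, 10 of Gbp2 and 22 of Cxcl10. That cell had 26727 UMIs, over 2 times the library's median, and whether it was 2 cells in 1 droplet was not tested. None of the 8 had Ifnb1. The highest Rsad2 cell of the cDC1 sort had 29 UMIs of Rsad2, 6 of Mx1 and 89 of Cxcl9 but 1 of Isg15 and none of Ifit1 and Ifit3.

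**Figure D5:**
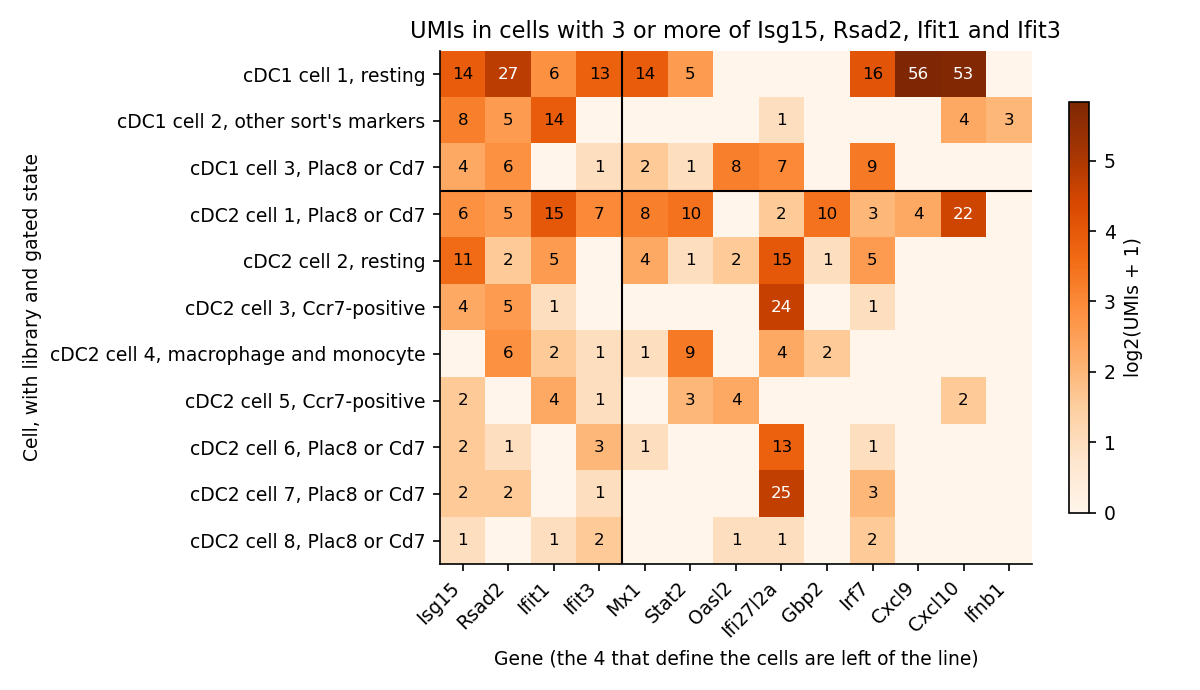
UMIs per gene (numbers, shaded as log2 of UMIs + 1) in the 3 cells of the cDC1 sort and the 8 cells of the cDC2 sort that hold 3 or more of Isg15, Rsad2, Ifit1 and Ifit3, with each cell's gated state. Mx1, Irf7, Cxcl9 and Cxcl10 are high in the first cDC1-sort cell, Ifnb1 is found in the second alone, and 4 of the 8 cDC2-sort cells are Plac8 or Cd7 cells.

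Of the 9 Ifnb1-positive cells of the cDC2 sort 7 also had Isg15, at 2 to 7 UMIs, and 1 had Ifit1. Across all cells the members were found together only in part. Of the 7 Ifit1-positive cells of the cDC1 sort 5 had Isg15, and of the 42 in the cDC2 sort 26 had it, while 4.62% and 18.2% of all cells in the same order did. Gbp2 was found in 5 of 28 Rsad2-positive cells of the cDC1 sort, where 1.67% of all cells had it, and in none of the 7 with Ifit1 or the 14 with Ifit3. Among cells of the cDC2 sort it was found in 9 of 42 Ifit1-positive, 4 of 16 Ifit3-positive and 8 of 54 Rsad2-positive cells, where 5.29% of all cells had it. Oasl2 was found there in 12 of 54 Rsad2-positive and 5 of 16 Ifit3-positive cells, where 3.88% of all cells had it. Depth was not matched between these cells and the rest. Stat2 and Mx1 were found in the same cell about as often as their shares give, with Stat2 in 54.0% of Mx1-positive cells of the cDC1 sort, where 53.5% of all cells had it, and in 27.8% of those of the cDC2 sort, where 28.3% had it.

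The summed share of the 9 members is mostly Ifi27l2a, with 56.3% of the members' UMIs in the cDC1 sort and 78.5% in the cDC2 sort. The genes whose share per cell was most like that sum were, in the cDC1 sort, Ifitm3 (Pearson r 0.344 over 2574 cells), Cxcl9 (0.330), Slfn5 (0.30), Parp14 (0.243), Samhd1 (0.199), Tspo (0.196), Rnf213 (0.194) and Cybb (0.188). Genes known as interferon-inducible include Ifitm3, Cxcl9, Slfn5, Parp14 and Samhd1, and the libraries were not compared in this respect. Those of the cDC2 sort were Cd300ld (0.268 over 2835 cells), Cdk2ap2 (0.261), Lst1 (0.257), Cebpb (0.254), Sorl1 (0.249), Txnip (0.227), Hdc (0.219) and B2m (0.215). The first 3 of the cDC2 sort were also the 3 most like Ifi27l2a alone. Without the 2 cells of highest summed share, Cxcl9 had 0.189, Slfn5 0.190 and Parp14 0.172 in the cDC1 sort. The other genes of that sort changed less, with Ifitm3 at 0.315, Samhd1 0.168, Tspo 0.188, Rnf213 0.196 and Cybb 0.209. Among those of the cDC2 sort Cd300ld had 0.164, Cdk2ap2 0.123, Lst1 0.166, Cebpb 0.181, Sorl1 0.140, Hdc 0.137 and Txnip 0.0989, while B2m had 0.222. Cells of a library share depth and free RNA, these values are weak, and they describe the cells only. Rsad2 and Cxcl9, a pair chosen after its value was seen, had r 0.843 in the cDC1 sort and -0.00833 without the 2 cells of highest Rsad2.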

How the data were processed

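Single-cell libraries of sorted lung dendritic cells were made with 10x Chromium v3.1 chemistry and sequenced together on 1 lane, per the labels' protocols. The authors deposited raw counts of unique molecular identifiers (UMIs) per gene and barcode for each library. Cell Ranger 3.2, Seurat and build mm10 are named in the submitters' processing notes, without their roles, while the matrices' headers give software version 3.0.2. Barcodes under 500 genes, under 1000 UMIs or over 10% mitochondrial UMIs were dropped, which left 2574 and 2835 cells, with 35071861 and 38613693 UMIs. No doublet caller was run and doublets stay in.

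UMIs were summed per sort or gated state and divided by their total (CPM). Levels have exact Poisson intervals, ratios exact conditional binomial ones and shares exact Clopper-Pearson ones, all at 95% and covering no more than counting error. Calls needed 10 CPM in either group and a 2-fold difference. Levels were not scaled by gene length, since tag counts do not scale with it, and CPM of different genes were not tested against each other. Cells entered a state by the number of its markers with a UMI (3 for most lists, 4 for cycling, macrophage and heat-shock lists, 1 for Plac8 or Cd7, and 3 UMIs of Ccr7). Named were the 9 members, the pathway genes past 2-fold between the sorts (up to 6 a list) and the 2 of highest level in a list, and the 8 genes most like the members' sum. Other genes are said to have been chosen after their values were seen. One gene of the receptors, kinases and factors list is not reported here. The members and lists were chosen with earlier results of these data known, and the gates' thresholds after seeing the data. The calculations were tested on simulated data and used Python 3.11.15, numpy 2.4.6, scipy 1.17.1, pandas 2.3.3 and matplotlib 3.10.9.

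Alternatives were other cell filters, scalings, minimum levels, gates and thinning, and leaving out groups of cells. Leaving out cells with the other sort's markers, cells with a shared barcode and, within states, the 1% of cells with most UMIs of a member was chosen after seeing the data, as were counts of genes at 10 CPM in the whole library and of cells with at least 2 UMIs of each gene.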

Additional observations from a re-analysis of the deposited data

Results flagged for a closer look

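Between the sorts, 4 results ran in opposite directions with neither counting interval holding 1. None of these differences was tested, since each sort is 1 library. Mx1 was lower in the cDC1 sort among mature cells (ratio 0.479) and higher in it among resting cells (3.08). Gbp2 had a ratio of Ccr7-positive over resting cells of 12.8 in the cDC1 sort and 0.60 in the cDC2 sort, on 10 and 34 UMIs in Ccr7-positive cells. Oasl2 had a ratio of the cDC1 over the cDC2 sort of 2.28 among Ccr7-positive cells and 0.535 among resting cells. The former rests on 13 UMIs in the cDC1 sort, 5 of them in 1 cell and 3 in another, and on 38 UMIs in the cDC2 sort. All levels behind the Gbp2 and Oasl2 ratios were under 10 CPM, too low for a call. Ifi27l2a had a ratio of Plac8 or Cd7 over resting cells of 0.813 in the cDC1 sort and 1.34 in the cDC2 sort.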

How the results depend on the processing

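Of the values that answer a comparison, 110 stayed within the counting interval of the reported value, or within 1.5 times the reported count, and 33 moved. Without the 1% of cells with most UMIs of the gene in question, the ratio of the cDC1 over the cDC2 sort was 0.141 for Isg15, 3.01 for Mx1, 0.0849 for Rsad2, 0 for Ifit1, 0.288 for Oasl2, 0.409 for Ifi27l2a and 0.126 for Gbp2. That 1% was 26 cells of the cDC1 sort, more than the 7 with Ifit1, so the 0 was set in advance. It takes a larger part of a gene's UMIs in the sort where fewer cells have it, which moves these ratios by itself. With each cell weighing the same it was 1.95 for Mx1, 0.674 for Rsad2 and 0.421 for Ifi27l2a. Without cells of the other sort's markers it was 0.200 for Isg15, 0.101 for Ifit1 and 0.423 for Ifi27l2a. Without mature, cycling and non-dendritic cells it was 0.207 for Isg15, 1.72 for Rsad2 and 0.170 for Gbp2, and without non-dendritic cells alone 1.73 for Rsad2. With a minimum of 50 CPM, 1 member was higher in cDC1 and 1 in cDC2, and with no minimum 4 were higher in cDC2. With 1 marker more in each gate, 2 members were higher in Ccr7-positive cells of the cDC1 sort and 2 in Plac8 or Cd7 cells of the cDC2 sort. The mature gate was narrower then too, so former mature cells could be among the Ccr7-positive ones. Without the 1% of cells with most UMIs of the gene, 0 members were higher in the Ccr7-positive cells of the cDC1 sort. Counting members at 10 CPM in the whole library, 1 was higher in mature cells of each sort and 0 in Ccr7-positive cells of the cDC1 sort. The mature over resting ratio of Ifit1 in the cDC2 sort was 0 with 1 marker more and also without those 1% of cells. Thinning to 2000 UMIs left 1 member in the cDC1 sort and 2 in the cDC2 sort with a variance of at least 2 times the mean. It left 0% of cDC2-sort cells with 3 or more of the 4 genes. The share of cells was 0.544% in the cDC1 sort and 1.62% in the cDC2 sort when 2 of the genes sufficed, 0.0353% in the cDC2 sort when all 4 were needed, and 0.0705% in the cDC2 sort with at least 2 UMIs of each gene. Of the values of single genes in a state or of their shares in few cells, 177 stayed, 46 moved and 2 reversed, both of Ifit1. The cause was not tested.

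Few UMIs limit Rsad2, Ifit1, Ifit3, Oasl2 and Gbp2, and with 1 library per sort the difference between animals is unknown. Gating with 1 marker fewer could not be applied to Plac8 or Cd7 cells. The median ratio over 5711 genes was 0.970, and scaling by it changed no call. No paired analysis was possible because each sort has 1 library and no test was made.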
